A study of Mus musculus with 12 samples.

Results

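Transcripts of 10 apolipoprotein genes, Apoa1, Apoa2, Apoa4, Apoa5, Apob, Apoc1, Apoc2, Apoc3, Apoe and Apom, were examined in mouse liver by RNA sequencing. They were the rows of a table of 41128 genes whose symbol was one of these names, and all 10 were among the 11782 genes tested, those with a mean value of at least 10. The genes were chosen by their values across the GF and CV libraries, over both sexes and within each. Their differences between the conditions are therefore given as a description, and counts past a threshold are not read as a test. The 12 livers came from C57BL/6 mice born germ-free and kept in sterile isolators to weaning at day 21. Littermates then stayed in the isolators (germ-free, GF) or were moved out for 3 weeks into cages with used bedding brought from other parts of the facility (conventionalized, CV). All were 6 weeks old, and each condition had 3 males and 3 females. Both groups thus lacked microbes until weaning, and a CV mouse carried whatever the bedding passed on, in cages that the labels do not list.

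Apolipoproteins are the protein parts of lipoproteins, the particles that carry cholesterol and triglyceride in blood. Apob is the scaffold of very low density lipoprotein, Apoa1 and Apoa2 are the main proteins of high density lipoprotein (HDL), and the smaller exchangeable members steer lipases and receptors. The liver makes most of them, and the intestine also makes Apoa1, Apoa4, Apob and Apoc3. In mouse, Apoa4 is best known as a gene of the intestine that is also switched on in liver by fasting and by fat accumulation.

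Stretches upstream of 4 starts are given 5′ to 3′ on the strand of the gene, from RefSeq (build GRCm38.p6). They show the DNA next to Apoa4, Apoa1 and Apoa5, which lie close together on chromosome 9, and next to Apoc2 on chromosome 7. Each runs from 250 bases before the RefSeq start to the first start that RefSeq or GENCODE annotates. Capitals mark a match to one of 6 short motifs, searched on both strands. The stretches lie at chr9:46240594-46240695 for Apoa4, chr9:46228380-46228579 for Apoa1, chr9:46268358-46268607 for Apoa5 (all on the plus strand) and chr7:19677942-19678191 for Apoc2 (minus strand).
Apoa4: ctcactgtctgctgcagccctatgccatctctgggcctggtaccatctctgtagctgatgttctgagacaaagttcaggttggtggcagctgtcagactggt
Apoa1: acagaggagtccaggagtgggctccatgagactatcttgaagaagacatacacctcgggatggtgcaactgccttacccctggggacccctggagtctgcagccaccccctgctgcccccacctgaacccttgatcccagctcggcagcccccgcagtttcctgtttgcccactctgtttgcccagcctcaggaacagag
Apoa5: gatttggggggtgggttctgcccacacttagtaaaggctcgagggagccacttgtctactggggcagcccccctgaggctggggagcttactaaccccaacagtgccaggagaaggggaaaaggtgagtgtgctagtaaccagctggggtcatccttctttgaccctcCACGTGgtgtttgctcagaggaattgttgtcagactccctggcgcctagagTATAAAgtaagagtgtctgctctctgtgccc
Apoc2: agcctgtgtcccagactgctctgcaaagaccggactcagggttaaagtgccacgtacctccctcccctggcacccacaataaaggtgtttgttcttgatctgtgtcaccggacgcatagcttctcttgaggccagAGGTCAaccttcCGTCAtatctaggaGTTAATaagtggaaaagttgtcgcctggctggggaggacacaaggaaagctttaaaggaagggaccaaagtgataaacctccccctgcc
Over the whole 300-base windows, which end 50 bases after the start, 8 of the 10 genes had an entry and 32851 windows of all genes served for comparison. Apoc1 and Apoc3 were not analysed here. A gene counted if any of its windows matched, and Apoa2 and Apoa5 had 2 windows and Apoe 3. The percentages are per single window, so they are not a like measure. AGGTCA, the half-site of nuclear receptors, lay in windows of Apoa2 and Apoc2 and in 16.3% of all windows. CAAAGTC, a core bound by Hnf4a, lay in 0 of 8 genes and in 4.44% of all windows. GTTAAT, a core bound by Hnf1 factors, lay in Apoc2 and Apoe (7.10% of all). TGACG, a core of cyclic AMP response elements, lay in Apoa2 and Apoc2 (20.8%), and CACGTG, the E-box, in Apoa5 (7.15%). TATAAA lay in Apoa2, Apoa5, Apob and Apoe (13.6%). The Apoe matches to GTTAAT and TATAAA lay in windows wholly after the GENCODE start of Apoe, and its window at that start held 0 matches. No motif contains another. The windows of Apoa4, Apoa1 and Apom held 0 matches to these letters. Of these windows 102 bases of Apoa4 and 200 of Apoa1 lie before the GENCODE start, and the Apom window lies almost wholly after it. These 0 matches are thus not comparable with the windows of Apoa5 and Apoc2, with 250 bases upstream. Variants of the motifs were not searched.

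Values are normalised read counts, that is reads divided by 1 size factor per library. The libraries held 5993619 to 10975691 reads in GF and 8890529 to 15290835 in CV. Mitochondrial ribosomal RNA took 9.36 to 16.4% of reads in GF and 1.39 to 6.32% in CV. Together with Lars2, Mir6236 and genes with no symbol or a Gm number it took 48.1 to 75.0% in GF and 7.76 to 25.8% in CV. This set is called the abundant loci below. All genes with no symbol or a Gm number entered it, whatever their level. Within GF the ribosomal share was 9.36 to 11.5% in males and 13.4 to 16.4% in females. With the other loci added it was 48.1 to 58.6% in GF males and 65.1 to 75.0% in GF females. In the libraries CV male 2 and CV male 3 the ribosomal share was 5.89% and 6.32%, above the other CV libraries. The library labelled CV male 3 held 0 reads of Ddx3y, Kdm5d, Eif2s3y and Uty, as against 796 to 1314 in the other 5 male libraries. Its Xist value was 2382, against 4.68 to 21.3 in those 5 libraries. Xist was 1045 to 1090 in CV females and 7607 to 11928 in GF females. The reads of CV male 3 thus went against its label, and no fit counted it as female. Its label was kept, and what changed when it was left out is given with the results on males and on sex.

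Apoa4, which encodes a protein of HDL and chylomicrons, differed more between the conditions than any other of the 10 genes. It lies on chromosome 9 at 46240696-46243459, on the plus strand. Its values were 28.7, 87.8 and 73.7 in GF males and 1044, 1038 and 847 in CV males. They were 109, 69.2 and 38.3 in GF females and 1394, 2426 and 3728 in CV females. Every CV library thus lay above every GF library, and by label every CV female lay above every CV male. The lowest CV value, 847, was that of CV male 3, whose reads were not those of a male. The order of the sexes thus holds by label only. The log2 difference, CV minus GF on the scale of log2(value + 1), was 4.59 ± 0.30 (SE, n = 6 per condition), a 24.1-fold higher level. The GF values rested on 20 to 72 reads and the CV values on 932 to 6192. The smallest, 20 reads, has an exact Poisson interval of 12.2 to 30.9 reads at 95%, which covers counting error only. A predicted antisense gene, Gm10680, overlaps Apoa4, and it held 0 reads in every library.

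Apom, the HDL protein that carries sphingosine 1-phosphate, was next (chromosome 17, 35128997-35132050, minus strand). Its values were 236, 455 and 419 in GF males, 2032, 2051 and 1466 in CV males, 187, 567 and 220 in GF females, and 2961, 2912 and 3747 in CV females. As with Apoa4, no CV library overlapped a GF library, and by label CV females lay above CV males. The lowest CV value, 1466, was again that of CV male 3. The log2 difference was 2.91 ± 0.26, or 7.54-fold.

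**Figure D1:**
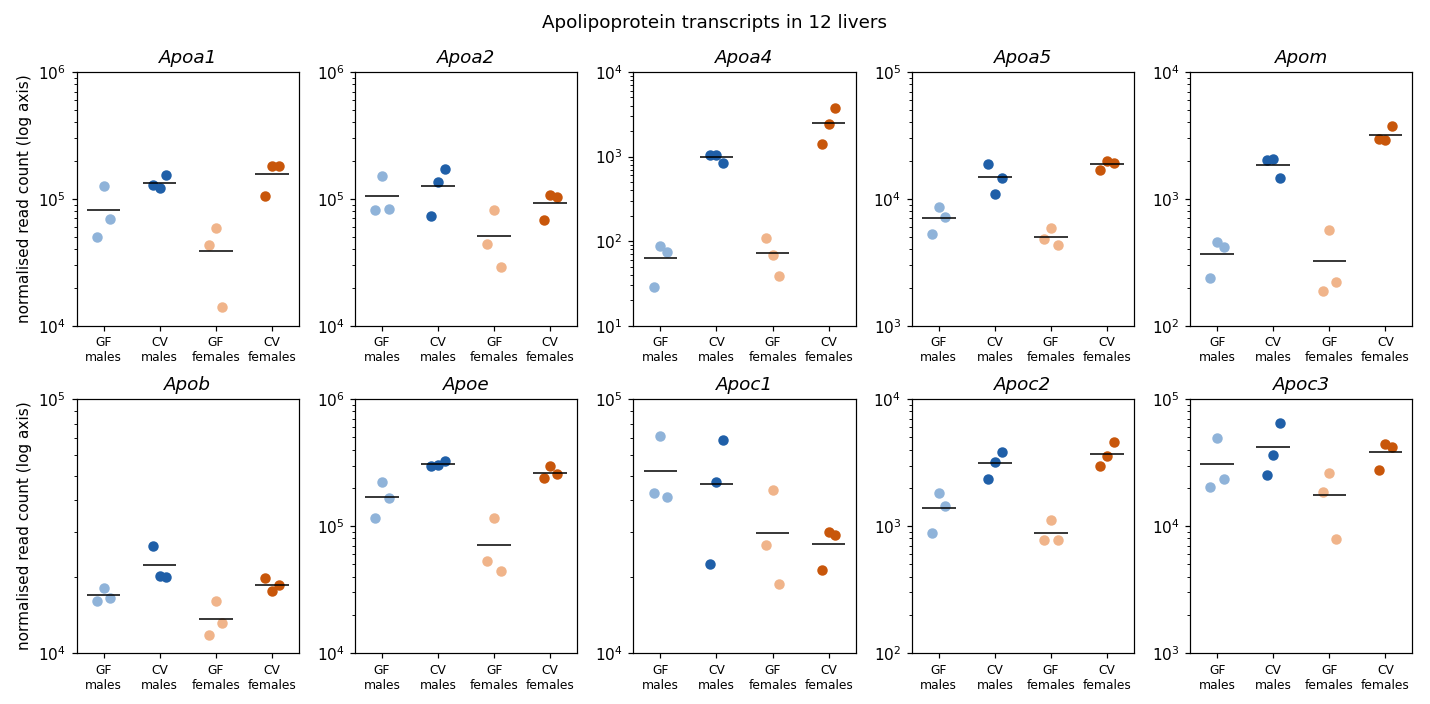
Normalised read counts (log axes, scaled to each gene) of the 10 apolipoprotein genes in GF and CV males and females. Points are libraries (3 per group) and lines are group means. Apoa4 and Apom separate GF from CV in both sexes, whereas the Apoc1 points of both conditions overlap.

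The other proteins of HDL changed less. Apoa1, which activates the enzyme Lcat, read 49803, 126231 and 69268 in GF males and 127434, 122334 and 153441 in CV males, so that 1 GF male lay within the CV range. In females it read 42981, 59386 and 14066 in GF and 105344, 181241 and 183028 in CV, with no overlap. Its log2 difference was 1.51 ± 0.43 (2.85-fold). Apoa2, the second protein of HDL, ranged from 29019 to 151598 in GF and from 67766 to 172683 in CV. Its log2 difference was 0.60 ± 0.40, and the conditions overlapped in both sexes. Apoa5, which promotes lipolysis by lipoprotein lipase, ranged from 4321 to 8664 in GF and from 10977 to 20039 in CV without overlap, with a log2 difference of 1.49 ± 0.23.

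Apob, the structural protein of the particles the liver secretes, ranged from 11803 to 18084 in GF and from 17508 to 26493 in CV, and CV lay above GF without overlap within males and within females. The log2 difference was only 0.42 ± 0.23. Scaling to all reads gave 0.98 ± 0.21, and scaling to reads outside the abundant loci named above gave -0.22 ± 0.18, but both scalings moved all genes alike. Relative to the median of all tested genes Apob stood at 0.35 on the deposited scale and at 0.36 and 0.38 under these scalings.

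Apoe, the ligand of the low density lipoprotein receptor family, read 116511, 222845 and 166911 in GF males and 298902, 301518 and 328158 in CV males. In females it read 52645, 115814 and 44399 in GF and 239829, 295466 and 254992 in CV. The conditions did not overlap, the GF libraries were widely spread and the CV libraries close together, and the log2 difference was 1.47 ± 0.44. Apoc2, the cofactor of lipoprotein lipase, ranged from 771 to 1827 in GF and from 2363 to 4587 in CV without overlap, a log2 difference of 1.64 ± 0.22. Apoc3, which slows lipolysis and uptake, ranged from 7953 to 49099 in GF and from 25214 to 64664 in CV, with a log2 difference of 0.84 ± 0.37 and an overlap in males.

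Apoc1, an inhibitor of lipases and of cholesteryl ester transfer, was the only one of the 10 whose difference was below 0 (-0.17 ± 0.35). Its values were 42654, 71881 and 41346 in GF males, 22339, 47166 and 69090 in CV males, 26583, 43841 and 18678 in GF females, and 21143, 29888 and 29247 in CV females. The conditions overlapped in both sexes. Relative to the median of all tested genes it stood at -0.25, and at -0.24 and -0.21 under the scalings to all reads and to reads outside the abundant loci, although the difference itself was 0.39 ± 0.29 and -0.82 ± 0.30 there.

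Over both sexes 6 of the 10 genes passed the limma threshold (adjusted p under 0.05 over all tested genes) as higher in CV, namely Apoa4, Apom, Apoc2, Apoa1, Apoa5 and Apoe, and 0 as lower. Of all tested genes 32.3% passed as higher and 28.7% as lower. The median log2 difference was 1.48 over the 10 genes and 0.07 over all tested genes. In males 4 of 10 passed as higher (Apoa4, Apom, Apoc2 and Apoa5; 14.1% of all genes) and 0 as lower (15.4%). In females 6 of 10 passed as higher, the same genes as over both sexes (29.8%), and 0 as lower (26%). CV lay above GF without overlap for 6 genes in males (22% of all genes) and for 8 in females (34%), and for 6 in males without CV male 3 (26.3%). Since these contrasts chose the genes, nothing is read from the counts. With the share of mitochondrial ribosomal RNA as a covariate 0 of the 10 genes passed in any of the 3 contrasts, and of all genes 0 passed over both sexes (1985 at an unadjusted p under 0.05). In that fit the log2 difference over both sexes was 4.23 ± 1.14 for Apoa4 (limma adjusted p not past the threshold), 2.91 ± 0.95 for Apom, 0.75 ± 0.77 for Apoa5, -0.02 ± 0.77 for Apob, 2.89 ± 1.26 for Apoa2 and 2.42 ± 1.03 for Apoc1. Of the variance of the share 93.5% lay between the 4 groups.

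Scaling moved all genes by a similar amount. The median of all tested genes was 0.63 with values scaled to all reads, with 5971 genes called higher and 1601 lower. It was -0.60 with values scaled to reads outside the abundant loci, with 1616 higher and 6101 lower, as against 3807 and 3387 on the deposited scale. Under these scalings Apoa4 differed by 5.15 ± 0.31 and 3.96 ± 0.28, which is 4.52 and 4.56 above the median of all genes, and Apom by 3.48 ± 0.23 and 2.27 ± 0.22, or 2.85 and 2.88 above it. Apoa2 went from 1.16 ± 0.31 to -0.04 ± 0.33, at 0.54 and 0.56 above the median. After a trend on exonic length and GC content was removed from each library, the difference of Apob, with the longest transcript of the 10, was 1.33 ± 0.22, and that of Apoa4 3.92 ± 0.27.

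Within a library, a ratio between genes does not depend on the scale. Set against Alb, the albumin gene of hepatocytes, the Apoa4 ratio was higher in CV by 3.38 (log2) in males and 3.64 in females, and the Apom ratio by 1.67 and 2.00, with no overlap. The Apoc1 ratio was lower by 0.95 and 1.55 in log2 terms, again with no overlap. Alb itself was higher in CV by 1.08 ± 0.45 over both sexes, against -0.17 ± 0.35 for Apoc1 and 0.42 ± 0.23 for Apob. A lower ratio is therefore not in itself a lower level of the gene. The ratios of Apoa5 and Apoc2 to Alb overlapped between the conditions in both sexes, with log2 differences from 0.38 to 0.59. Those of Apob and Apoc3 overlapped in males and were lower in CV females, and that of Apoa2 overlapped in both sexes. Those of Apoa1 and Apoe overlapped in males and were higher in CV females. Without CV male 3 the male differences were 3.64 for Apoa4, 1.99 for Apom and -1.15 for Apoc1, and the Apoa5 ratio (0.53) no longer overlapped.

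The share of each gene among the reads of the 10 showed the same shift. Apoe took 34.2 to 40.8% of these reads in GF males and 39.6 to 49.99% in CV males, and 26.04 to 33.5% in GF females and 38.5 to 47.5% in CV females. Apoc1 took 10.1 to 12.8% in GF males and 3.74 to 8.34% in CV males, and 12.5 to 14.1% in GF females and 4.18 to 4.42% in CV females. Apoa4 remained a small part, at most 0.0538% in a GF library and 0.102 to 0.563% in CV. In CV male 2 and CV male 3 the shares of Apoc1 (6.94% and 8.34%) and Apoa2 (19.8% and 20.8%) lay nearer to GF than in CV male 1 (3.74% and 12.3%). Without these 2 libraries, an alternative added after the data were seen, only CV male 1 remained in its group. The log2 differences in males were then -1.17 ± 0.57 for Apoc1 and 0.83 ± 0.41 for Apoc2. With all libraries they were -0.27 ± 0.50 and 1.21 ± 0.31. The 10 genes together held 4.31 to 12.1% of the reads outside the abundant loci in GF and 8.34 to 13.8% in CV.

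**Figure D2:**
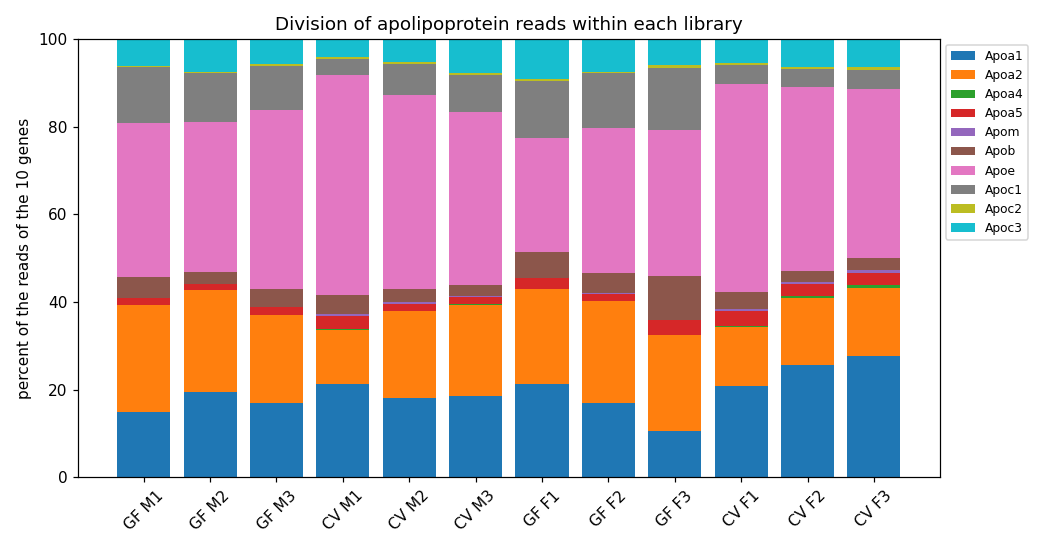
Percent of the reads of the 10 apolipoprotein genes that each gene took in each of the 12 libraries (bars sum to 100%). Apoe takes the largest share in each library, and the Apoc1 segment is narrower in the CV libraries, least so in CV male 3.

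Levels were compared between genes per kilobase of exonic length, in normalised reads. In GF the order of the means was Apoa2 (145566 ± 79118, SD, n = 6), Apoe (56059 ± 31764), Apoc1 (54879 ± 24568), Apoa1 (48778 ± 30220), Apoc3 (23961 ± 13489), Apoa5 (2384 ± 646), Apoc2 (1396 ± 520), Apob (1094 ± 168), Apom (343 ± 152) and Apoa4 (37.3 ± 16.5). In that order the ranges of mean ± SD overlapped between neighbours except between Apoc3 and Apoa5, between Apob and Apom and between Apom and Apoa4. In CV Apoa1 (117694 ± 26153) stood above Apoc1 (49031 ± 24846), and Apom (2496 ± 817) came before Apob (1464 ± 226), and the order was otherwise the same. There the ranges overlapped between neighbours except between Apoa1 and Apoc1, between Apoc3 and Apoa5 and between Apoa5 and Apoc2. In CV males Apom (1826 ± 328) and Apob (1593 ± 267) did not differ beyond their spread. Apoa4 was last in both conditions, at 962 ± 619 in CV.

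On the deposited scale the log2 difference was higher in females than in males for all 10 genes, as for 53.2% of all tested genes. With values scaled to reads outside the abundant loci this turned for Apob (-0.36, female minus male) and Apoc1 (-0.24), and leaving out libraries also turned these 2, down to -0.20 and -0.26. For Apoa4 the log2 difference was 4.06 ± 0.43 in males and 5.12 ± 0.43 in females (n = 3 per group), for Apom 2.36 ± 0.36 and 3.47 ± 0.36, and for Apoc2 1.21 ± 0.31 and 2.06 ± 0.31. For Apoa1 they were 0.82 ± 0.61 and 2.20 ± 0.61, and for Apoe 0.92 ± 0.62 and 2.02 ± 0.62. GF females also had a higher share of mitochondrial ribosomal RNA than GF males, without overlap. The part of that share in the differences between sexes was not tested. In the test of the difference between sexes itself 0 of 10 genes passed by limma (0% of all tested genes), with 1 of 10, Apom, at an unadjusted p under 0.05 (1.12 ± 0.51, adjusted p = 0.424), as against 11.7% of all genes. edgeR and DESeq2 on the recovered reads also called 0 of the 10 (0 of 12555 and 23 of 22941 tested genes). Without the library labelled CV male 3 the differences in males were 4.16 ± 0.48 for Apoa4, 2.52 ± 0.40 for Apom, 1.05 ± 0.34 for Apoc2, 0.72 ± 0.70 for Apoa1 and 0.88 ± 0.72 for Apoe. The same 4 genes passed as higher, as did 1428 of all 11800 tested genes. For the difference between sexes 0 of the 10 passed without CV male 3 (4 of all 11800 tested genes), and Apom was at 0.96 ± 0.54 (limma unadjusted p = 0.0932). In males 2 of the 4 calls, Apoa5 and Apoc2, were lost without GF male 1, which left 2 of 10. In that fit 725 of all 11740 tested genes passed as higher in males.

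**Figure D3:**
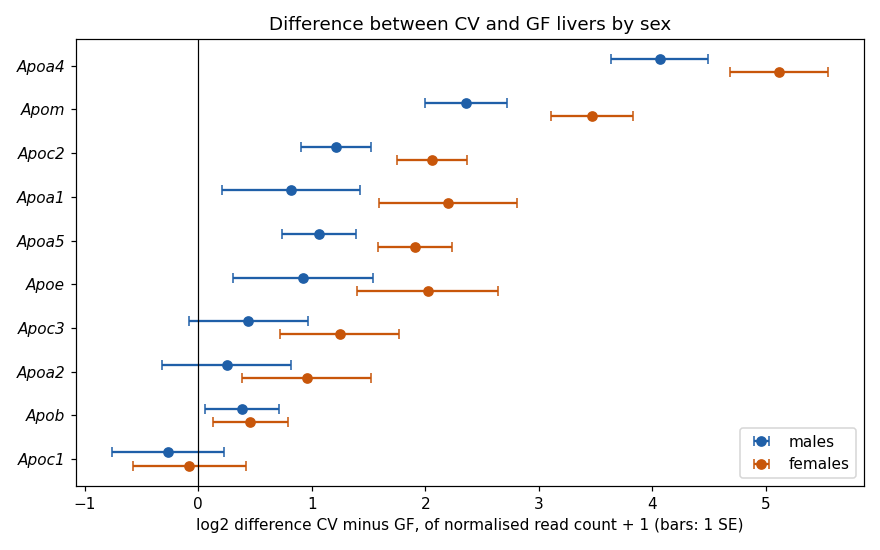
Log2 difference CV minus GF of the 10 genes in males and in females, on the scale of log2(normalised read count + 1), ordered by the difference over both sexes. Bars are 1 SE. On this scale the female point lies to the right of the male point for every gene, which turned for Apob and Apoc1 under another scaling, and the difference between sexes passed the limma threshold for 0 of them.

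Males and females of 1 condition were also compared, a contrast that did not enter the choice of genes. GF males and GF females did not overlap in the share of mitochondrial ribosomal RNA, and the part of that share was not tested. In GF 0 of the 10 genes passed by limma (1.63% of all tested genes did), and in CV 0 (0.0594% of all), and over both conditions 0 (1.16% of all). At an unadjusted p under 0.05 there was 1 gene in GF, Apoe (17.6% of all genes), there were 2 in CV, Apoa4 and Apom (5.10% of all), and 2 over both conditions, Apoa4 and Apoc1 (11.0% of all). Apoe was higher in GF males by 1.33 ± 0.62 (limma adjusted p = 0.273), and DESeq2 on the recovered reads called it, while edgeR called 0 of 10. Of all tested genes DESeq2 called 458 of 22941 there and edgeR 140 of 12555. With values scaled to all reads 4 genes passed as higher in GF males (Apoe, Apoc2, Apoa2 and Apoa1), as did 1350 of all 11893 genes (11.4%), whose median there was 0.37. Apoa4 in CV was lower in males by 1.26 on the log2 scale, written male minus female as -1.26 ± 0.43 (adjusted p = 0.763), and -1.16 ± 0.48 without CV male 3 (adjusted p = 0.929). Apom in CV was at -0.80 ± 0.36, and at -0.64 ± 0.40 without CV male 3.

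Of the 10 genes 7 lie in a pair of gene clusters. On chromosome 9 lie Apoa1, Apoc3, Apoa4 and Apoa5, whose log2 differences were 1.51, 0.84, 4.59 and 1.49. Apoc3 starts 5.06 kb before Apoa4 and on the other strand, and Apoa1 starts 12.1 kb before it. Beyond Apoa5, the tested neighbours within 100 kb, Zpr1 and Bud13, were lower in CV, by -1.27 ± 0.15 and -0.92 ± 0.23 (limma adjusted p = 5.13e-06 and 0.00263). On chromosome 7 Apoe and Apoc2 differed by 1.47 and 1.64, while Apoc1 and Apoc4, which lie between them, were at -0.17 and 0.27. Of 9 other tested genes within 100 kb there, 3 passed as higher (Clptm1, Nectin2 and Cblc), 3 as lower (Relb, Clasrp and Gm26890) and 3 did not pass (Apoc4, Tomm40 and Bcam).

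**Figure D4:**
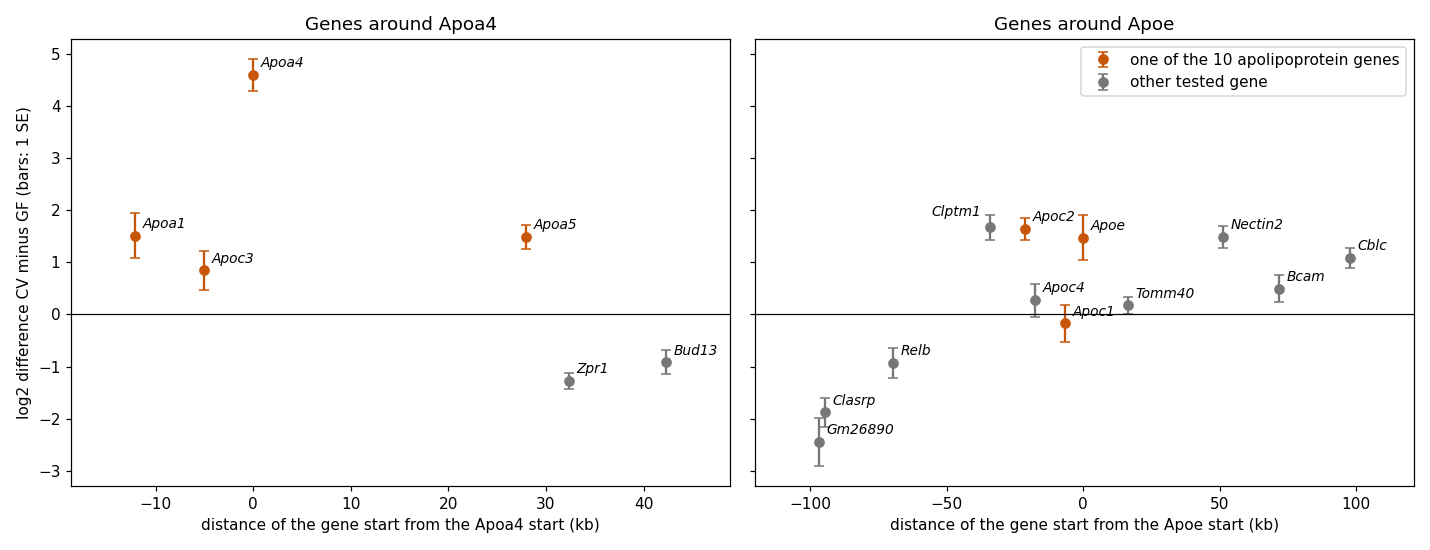
Log2 difference CV minus GF (bars: 1 SE) of tested genes against the distance of their start from that of Apoa4 (left) or Apoe (right), in kb along the chromosome. Coloured points are the 7 of the 10 apolipoprotein genes that lie in these clusters and grey points other genes. Apoa4 stands above its neighbours at 4.59, and Zpr1 and Bud13 lie below 0.

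The genes also varied together among mice of 1 group, but pairs among other genes were not computed for comparison. Correlations of log2 values after removal of the 4 group means, over 12 libraries that share normalisation and depth, had a median of 0.612 over the 45 pairs. They reached 0.974 between Apoa2 and Apoc1 and 0.952 between Apoa2 and Apoc3. Apob had a median of 0.056 over its 9 pairs, with 0.696 to Apom, 0.642 to Apoa5 and 0.521 to Apoe. Apoa1 followed Alb most closely (0.956) and Apoa4 less so (0.657). Beside these, the correlation with the share of mitochondrial ribosomal RNA was 0.779 for Apoc1, 0.683 for Apoa2, -0.443 for Apob and -0.092 for Apoa4, and the part of that share in them was not tested.

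The genes outside the 10 whose profile over the 12 libraries was most like that of Apoa4 were Sri (Pearson r = 0.980), Mmadhc (0.980), Pmvk (0.975), Mettl23 (0.974) and Tsen34 (0.970). Their log2 differences between CV and GF, 1.13 to 2.23, were smaller than that of Apoa4. After removal of group means they were Tmx4 (0.940), Unc119 (0.931), Sdf2 (0.915), Eif4ebp1 (0.889) and Coa3 (0.888). The lists share no gene.

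Other genes of lipoprotein handling were taken from 7 lists of 87 genes, of which 83 were tested and 57 passed by limma (68.7%, against 61.1% of all tested genes), 44 as higher (32.3% of all genes) and 13 as lower in CV (28.7% of all). Their median log2 difference was 0.45, against 0.07 over all genes. With the mitochondrial ribosomal RNA share as a covariate 0 of the 83 passed. Among other apolipoproteins 9 of 11 rose and 0 fell (median 1.29), led by Apof, which regulates lipid transfer, with 2.05 ± 0.27, Clu with 1.89 ± 0.26 and Apon with 1.68 ± 0.24, and Apoc4 was at 0.27 ± 0.32. In assembly and secretion of Apob particles 10 of 14 rose and 1 fell (median 1.39). Sar1b, the GTPase of the coat that carries these particles out of the endoplasmic reticulum, rose by 2.13 ± 0.21, Tm6sf2 by 2.05 ± 0.21 and Cideb, which adds lipid to the particle, by 2.38 ± 0.25. Mttp, which loads lipid onto Apob, rose by 1.00 ± 0.21, and Mia3 fell (-0.68 ± 0.15). Of the 4 genes of Apob mRNA editing, the deaminase Apobec1 (-0.83 ± 0.21) and Syncrip (-0.97 ± 0.20) fell, and A1cf and Rbm47 were at -0.07 and 0.02.

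In HDL formation and remodelling 7 of 10 rose and 1 fell (median 1.37). Pltp, the phospholipid transfer protein, rose by 2.91 ± 0.33, Pdzk1, the scaffold of the HDL receptor, by 2.28 ± 0.27, and Naxe, which binds Apoa1, by 1.58 ± 0.18, whereas the cholesterol exporter Abca1 fell (-0.88 ± 0.16). Of plasma lipases and their regulators 3 of 8 rose and 2 fell (median 0.26): Lipc, hepatic lipase (1.29 ± 0.19), and Lmf1 (1.12 ± 0.23) were among those that rose, and Lipg, endothelial lipase (-0.77 ± 0.25), and Lpl (-0.47 ± 0.19) fell. Of receptors and uptake genes 6 of 11 rose and 1 fell (median 0.45), led by Lrpap1 (1.74 ± 0.21), Sdc1 (1.96 ± 0.24) and Lsr (2.13 ± 0.29), with Sorl1 lower (-1.26 ± 0.35). Of 25 transcriptional regulators 9 rose and 6 fell (median 0.30). Cebpa (1.55 ± 0.20), Nr2f6 (1.51 ± 0.20) and Srebf2 (0.69 ± 0.19) rose, and Mlxipl, the carbohydrate response factor ChREBP (-2.54 ± 0.25), Ppargc1a (-2.36 ± 0.20) and Nr5a2 (-1.02 ± 0.21) fell. Creb3l3, a known activator of Apoa4 in liver, was at 0.17 ± 0.17. With values scaled to reads outside the abundant loci the medians of the lipase, receptor and regulator lists were -0.38, -0.20 and -0.35, where that of all genes was -0.60. With values scaled to all reads the median of the editing list was 0.11, where that of all genes was 0.63. On that scale 0 genes of the assembly, editing, lipase, HDL and receptor lists passed as lower, and 2 editing genes passed as higher. The falls named in those lists thus did not pass there. Of the regulators 17 passed as higher and 2 as lower, beside 5971 and 1601 of all 11893 genes. Outside the abundant loci 3, 4, 2, 1 and 3 genes of those lists, in that order, passed as lower. There 11 regulators and 6101 of all 12491 genes did.

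**Figure D5:**
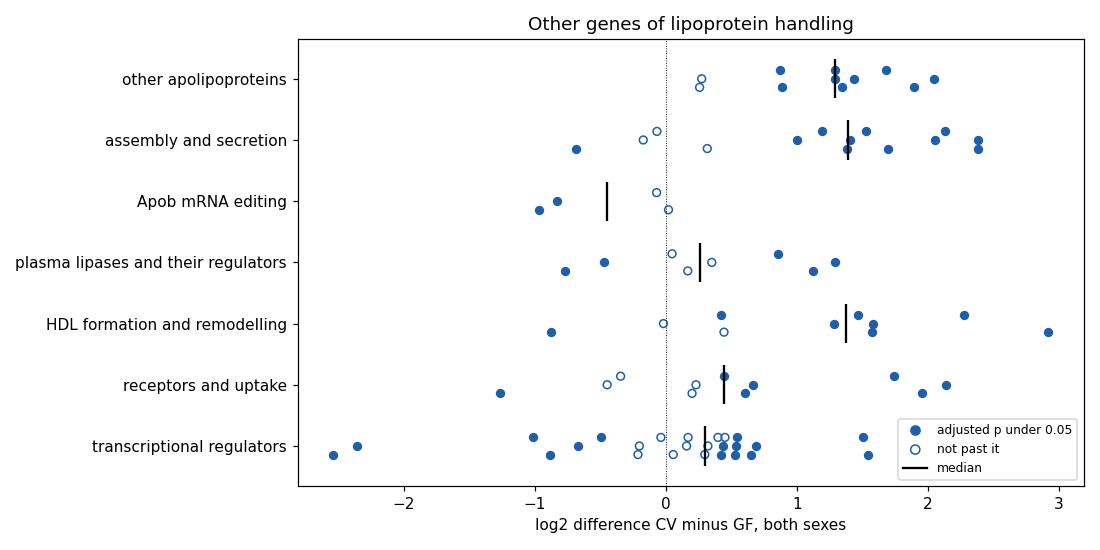
Log2 difference CV minus GF over both sexes of 83 tested genes in 7 lists of lipoprotein handling. Filled points passed the limma threshold, open points did not, and the vertical bar is the median of the list. The lists of assembly and secretion, of HDL formation and of other apolipoproteins have medians of 1.39, 1.37 and 1.29.

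Markers of other cells were read beside these differences, since bulk tissue cannot tell fewer cells of a type from less RNA per cell. Of 12 enterocyte markers, relevant because enterocytes express Apoa4, Alpi, Sis and Cdx1 held 0 reads in every library and only Fabp2 and Lgals4 reached the tested level. Fabp2 was higher in CV (1.54, from 136 to 775 in GF and 730 to 1300 in CV) and Lgals4 lower (-1.96), and the summed level of the list was 611 to 1049 in GF and 855 to 1450 in CV. For the counts that follow, 32.3% of all tested genes passed as higher and 28.7% as lower, with a median of 0.07. Of 10 hepatocyte markers 8 rose and 0 fell (median 0.84), with a sum of 106201 to 370487 in GF and 311752 to 502940 in CV. With values scaled to reads outside the abundant loci 2 of them were higher and 2 lower (median 0.20, against -0.60 for all genes). Of 11 macrophage and Kupffer cell markers, cells that also express Apoe, 7 rose and 0 fell, with sums of 1195 to 2668 and 1943 to 4288. Of 5 tested red blood cell markers 4 fell (sums of 2787 to 32922 in GF and 916 to 3162 in CV). Of 7 stellate cell markers 2 rose (1326 to 2886 and 1562 to 2895), and of 5 bile duct markers 0 passed (453 to 1059 and 527 to 1616). Of 9 pancreatic markers only Cela1 was tested, and it rose by 1.30, with sums of 37.7 to 294 and 173 to 363 and Amy2a5 at 0 reads. The part of these cells in the apolipoprotein differences was not tested.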

How the data were processed

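Liver RNA libraries from a stranded mRNA kit (12 mice, 1 table of 41128 genes) were analysed. The authors deposited a signal per gene and library, which is a read count divided by 1 size factor per library. The submitters' processing notes name HTSeq 0.6.1p1, DESeq2 and build GRCm38, and the aligner and annotation are not given in the sources used here. Whole reads were recovered within 0.01 for every value. Labelled replicates of a group are separate mice.

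Log2(value + 1) of 11782 genes with a mean of at least 10 was fitted by limma 3.58.1 (R 4.3.3) as 4 group means with a variance trend, and p-values were adjusted by Benjamini-Hochberg with a threshold of 0.05. edgeR 4.0.16, DESeq2 1.42.0 and other scalings served as alternatives. The members and lists were chosen with earlier results of these data known. All 10 members are named. Of each pathway list up to 3 called genes per direction, by adjusted p, are named, and Mttp, A1cf, Rbm47, Apoc4 and Creb3l3 were added after their values were seen. The values of 1 gene that this rule names are not reported here. Coordinates and lengths come from GENCODE M21 (GRCm38). Replicate numbers are shared between groups, but deviations of same-numbered GF and CV libraries correlated at -0.228 to 0.019, and the main fit used no pairs. With 3 libraries per group these values cannot show whether the numbers pair littermates. CV males and females of 1 number correlated at 0.118 to 0.193, and GF males and females at 0.059, 0.403 and 0.068. In the comparison of CV males with CV females a replicate block changed no call among the 10 genes. In that of GF males with GF females the block called 281 of all 11782 tested genes, against 192 without it.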

Additional observations from a re-analysis of the deposited data

How the results depend on the processing

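Of 740 alternative values of the 10 differences, 662 moved by less than 1 SD of the replicates, 78 moved by more, and 0 called values changed sign. The count of genes called stayed within 1.5 times of 6 over both sexes under 29 of 30 alternatives, of 4 in males under 22 of 24, and of 6 in females under 22 of 23. The exception in each was the mitochondrial ribosomal RNA share as a covariate, with 0 calls, as also for the 57 pathway genes (0), and in males the fit without GF male 1 (2 calls). Leaving out 1 library gave 6 to 7 calls over both sexes, 2 to 4 in males, 6 to 7 in females and 49 to 57 pathway genes. Over all genes these fits called 3492 to 3963, 725 to 1780 and 2964 to 3625 as higher in the 3 contrasts. The cause was not tested. With no filter on low values 4 were called over both sexes, without Apoa1 and Apoe, and 3768 of all 22953 genes were called higher. In the fit with a replicate block 6, 3 and 6 were called over both sexes, in males and in females, Apoa5 being lost in males, and 51 pathway genes. Of all 11782 genes 3639, 1212 and 3295 passed as higher in that fit. Over all genes and both sexes edgeR on the recovered reads called 7634 and DESeq2 8440, against 7194. Between males and females of GF 4 genes were called with values scaled to all reads and 1 by DESeq2, against 0. Over all genes these fits called 1394 of 11893 and 458 of 22941, against 192 of 11782. Without CV male 2 and CV male 3 together the lone CV male was assumed to vary like the other groups. Depth limits Apoa4 in GF most, at 20 to 72 reads per library.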
